A study of Mus musculus with 20 samples.

Results

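The collagen genes are the 44 genes whose symbol is Col, a type number, the letter a and a chain number, out of 45705 genes in the table. Every gene with such a symbol was taken, whatever its values, but earlier results of these data were known when the set was chosen. By the kind of assembly their chains form, 11 were fibrillar, 6 were the type IV chains of basement membranes, 12 formed other networks, anchoring fibrils or beaded filaments, 9 were FACITs (fibril-associated collagens with interrupted triple helices), 2 were multiplexins and 4 were transmembrane collagens. Values are RPKM (read counts scaled to the length of the gene and the size of the library), so that levels of different genes can be compared per length. Of the 44 genes, 37 reached 1 RPKM in at least 4 of the 20 libraries and were tested, while Col2a1, Col4a6, Col6a5, Col7a1, Col10a1, Col17a1 and Col20a1 did not.

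All libraries came from the periventricular zone of the brain of wild-type Swiss Webster mouse pups at postnatal day 5, with the pups of a litter pooled and both sexes together. Cells were sorted on CD133, LeX, CD140a and NG2 into NSC (neural stem cells, CD133+ LeX+ NG2- CD140a-) and 4 progenitor populations that all carried NG2 and lacked CD133: BNAP/GRP1 (LeX+ CD140a-), GRP2/MP3 (LeX- CD140a-), GRP3 (LeX- CD140a+) and PFMP (LeX+ CD140a+). No population carried a transgene, a deletion or a treatment. Each population had 1 library in each of 4 batches, a batch being only a number in the labels, and a library is named by population and batch, so that GRP3 2 is GRP3 of batch 2. Lists of 4 values below run from batch 1 to batch 4. Each progenitor was compared with NSC, and all these comparisons share the 4 NSC libraries.

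Collagens are secreted or membrane proteins whose chains wind around each other into a triple helix, and most chains assemble only with set partners. Type I and type III form the fibrils of connective tissue, made mainly by fibroblasts, while type IV forms the sheet of every basement membrane together with laminin, nidogen and perlecan. In the brain, fibrillar collagen is sparse and lies mainly in the meninges and around large vessels, whereas type IV is laid down around capillaries by endothelial cells and pericytes. The ventricular wall also holds fractones, small folds of basement membrane that touch the stem cells of the subventricular zone.

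Collagen genes were a small part of every library. Their RPKM values summed to between 33.5 and 432 per library, with a median of 117, and this was 0.00248% to 0.0296% of all RPKM. Between 8 and 44 of the 44 genes reached 1 RPKM in a library, with a median of 16.5. The gene that led the set differed by population: Col9a3 led in all GRP3 and PFMP libraries outside batch 3, Col4a1 led in the GRP2/MP3 libraries outside batch 3, and Col26a1 led in NSC 1, NSC 2 and NSC 4. In BNAP/GRP1 the leading gene was Col9a3, Col14a1, Col3a1 and Col26a1 in batches 1 to 4, a different gene in each. In batch 3, Col1a2 led in NSC 3 and Col3a1 led in the other 4 libraries.

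Some libraries stood apart. BNAP/GRP1 4 held all 44 genes above 1 RPKM, at 3.55 to 41.8 RPKM with a median of 7.18, and there the median over all tested genes was also high, at 10.9 RPKM, against 0.638 to 3.49 in the other 19 libraries. Its relative depth was estimated from the commonest ratio between low values of the same gene in 2 libraries. It was the lowest of all at 0.0395 of that of BNAP/GRP1 1, and the others lay between 0.118 and 1.41. Yet 38191 genes were above 0 in BNAP/GRP1 4, against a median of 26358 over the 20 libraries. The 5 libraries of batch 3 resembled each other across populations, and 6 markers of lung epithelium summed to 916 to 1041 RPKM in them and to at most 70.8 RPKM elsewhere. An estimate that moved by more than 1.5 times when 1 library was left out is followed by its value without that library. The total number of reads per library is unknown, so a value of 0 is only a listed 0 and counting error cannot be given.

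**Figure D1:**
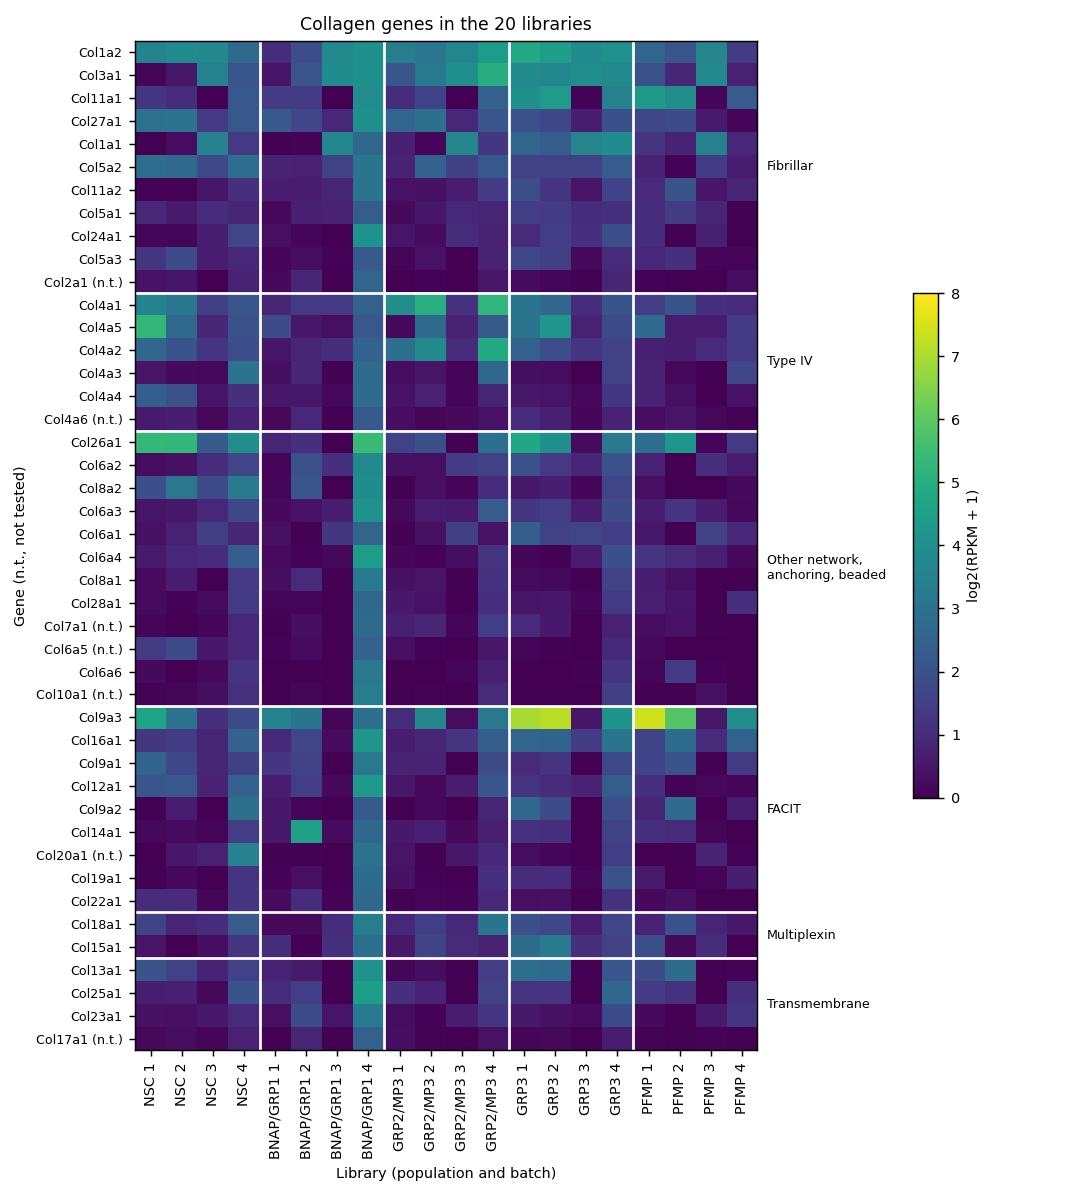
Level of each of the 44 collagen genes (rows, by class and by mean level within a class; n.t., not tested) in each of the 20 libraries (columns, by population and batch), as log2(RPKM + 1) on a colour scale from 0 to 8. Col9a3 is brightest in GRP3 and PFMP of batches 1 and 2 (56.7 to 171 RPKM), the column of BNAP/GRP1 4 is raised throughout, and the batch 3 columns share Col1a1, Col1a2 and Col3a1.

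The sorted populations were checked against 10 lists of markers that hold no collagen gene. The 5 ependymal markers summed to 1293 to 10811 RPKM in NSC and to at most 53.3 RPKM in every other library. The 7 markers of oligodendrocyte progenitors summed to 2947, 3558, 14.8 and 773 RPKM in GRP3 and 2327, 2366, 15.3 and 368 RPKM in PFMP, against at most 169 RPKM in the remaining populations, and the CD140a+ libraries of batch 3 were the low ones. Pericyte markers summed to 532, 461, 125 and 7481 RPKM in GRP2/MP3 and to at most 211 RPKM elsewhere, and in batch 3 Anpep alone gave 115 to 130 RPKM of the 117 to 131 RPKM. Microglia markers were 207 to 2292 RPKM in GRP2/MP3, 52.8 to 2299 RPKM in BNAP/GRP1, 18.7 to 187 RPKM in NSC, 15.1 to 211 RPKM in GRP3 and 12.3 to 211 RPKM in PFMP. The 6 markers of NSC and astroglia summed to 37.5 to 1859.7 RPKM in NSC, 15.8 to 1458 RPKM in GRP2/MP3 and 20.4 to 2932 RPKM in PFMP. They reached at most 236 RPKM in BNAP/GRP1 and 206 RPKM in GRP3, and PFMP 4 was the highest of all libraries. Aldoc alone gave 1003, 1189 and 2344 RPKM in NSC 4, GRP2/MP3 4 and PFMP 4, the highest library of each of these populations. Smooth muscle markers reached 183 RPKM in GRP2/MP3 4 and 123 RPKM in NSC 2, endothelial markers reached 340 RPKM in NSC 1 and 199 RPKM in GRP2/MP3 2, and choroid plexus markers reached 185 RPKM in NSC 2. In bulk samples, fewer cells of a type and less RNA per cell cannot be told apart.

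No collagen gene passed an adjusted p of 0.05 between populations in the model without batch. That was 0 of 37 in BNAP/GRP1 (background over all tested genes 0.760%), 0 for GRP2/MP3 (1.12%), also 0 for GRP3 (1.05%) and for PFMP 0 (1.14%), each against NSC by limma's moderated test. Likewise, 0 genes passed in NSC against the mean of the 4 progenitors (background 1.98%), 0 in the test of any difference among the 5 populations (0.786%) and 0 in the 6 direct comparisons between progenitors (0%). At an unadjusted p under 0.05 the collagen genes numbered 0 in BNAP/GRP1 (background 5.90%), while there were 3 in GRP2/MP3 (5.79%), a further 3 in GRP3 (5.62%), 2 in PFMP (5.88%), 3 in NSC against the progenitor mean (6.87%), 3 for any difference among populations (4.45%) and 5 in any direct comparison (7.36%). The shares of 37 were thus 8.11% for 3 genes and 13.5% for 5 genes.

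With the batch number in the model as a replicate block, Col8a2 passed and was the only collagen gene to do so. It gave 1 call of 37 in GRP2/MP3 (2.70%, background 3.08%), 1 in PFMP (background 2.79%), 1 in NSC against the progenitor mean (background 4.36%) and 1 for any difference among the 5 populations (background 2.34%). None was called in BNAP/GRP1 (background 2.09%), in GRP3 (background 2.60%) or between progenitors (background 0%). Without BNAP/GRP1 4 and with the block, an alternative chosen after seeing the data, 35 collagen genes were tested and the calls were 2 for BNAP/GRP1 (background 3.63%), 2 for GRP2/MP3 (5.28%), 2 for GRP3 (4.48%), 4 for PFMP (5.15%) and 4 in NSC against the progenitor mean (7.27%). The genes concerned are described with their classes.

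Of the 37 tested genes, the estimate was above 0 for 21 in BNAP/GRP1 (56.8%, against 68.1% of all tested genes), for 15 in GRP2/MP3 (40.5%, against 42.2%), for 21 in GRP3 (56.8%, against 55.4%) and for 10 in PFMP (27.0%, against 36.7%). The median log2 fold change of the collagen genes was 0.15, -0.08, 0.20 and -0.24 in these populations, beside 0.38, -0.08, 0.05 and -0.20 for all tested genes. In BNAP/GRP1, 4 collagen genes were above NSC in all 4 batches (10.8%, background 9.35%) and 0 were below in all 4 (background 7.68%). In GRP2/MP3 the numbers were 2 above (5.41%, background 4.76%) and 13 below (35.1%, background 12%). GRP3 had 10 above (27.0%, background 8.31%) and 9 below (24.3%, background 9.07%), and PFMP had 1 above (2.70%, background 5.75%) and 12 below (32.4%, background 12.3%). Col8a2, Col26a1, Col12a1, Col5a2, Col27a1 and Col22a1 were below NSC in all 4 batches in GRP2/MP3, GRP3 and PFMP alike. All 5 tested type IV genes had estimates below 0 in GRP3 and in PFMP, with a median of -0.38 and -1.10, and 7 of 10 fibrillar genes had estimates above 0 in GRP3, with a median of 0.76.

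**Figure D2:**
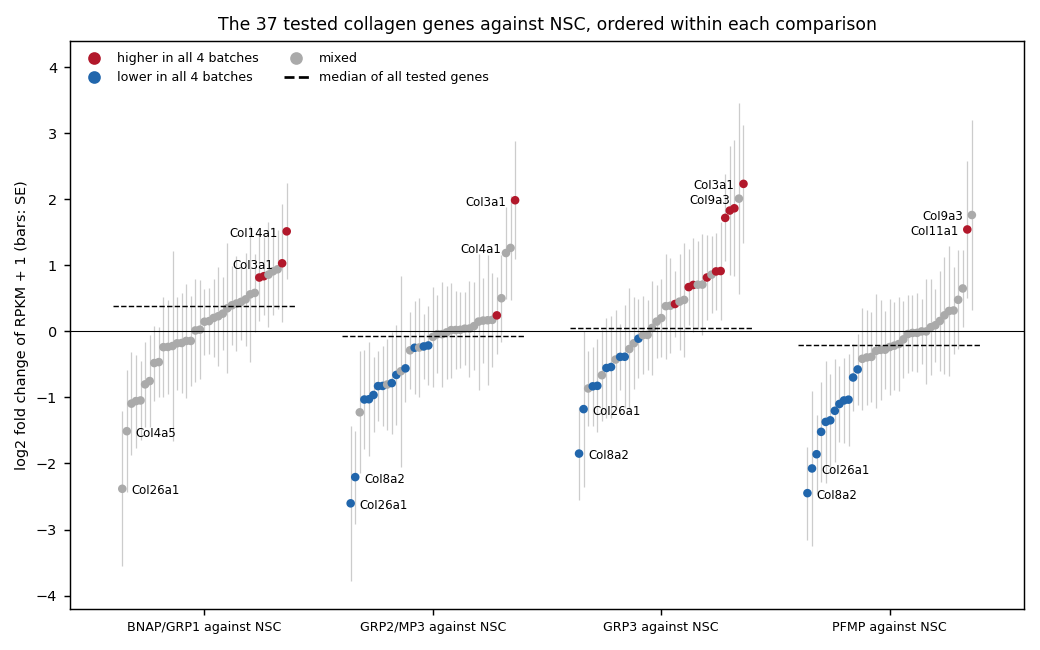
Log2 fold change of RPKM + 1 (vertical axis, bars are the SE of limma) of the 37 tested collagen genes in each progenitor against NSC, ordered within a comparison. Red genes were higher and blue genes lower in all 4 batches, grey genes were mixed, and the dashed line is the median of all tested genes (0.38, -0.08, 0.05 and -0.20), and Col8a2 and Col26a1 lie lowest in GRP2/MP3, GRP3 and PFMP.

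Col8a2 (chr4:126286793-126314330 in GENCODE vM21 on GRCm38) had lower values in GRP2/MP3 and PFMP than in NSC. These differences did not pass in the main model and passed with batch as a block, where no other collagen gene passed. Without the block they also passed after quantile normalization or with BNAP/GRP1 4 left out. Col8a2 encodes a chain of type VIII collagen, a short-chain network former known from the basement membrane of the cornea. Its RPKM was 2.88, 8.05, 2.66 and 9.11 in NSC, 0.0998, 3.28, 0.00208 and 13.8 in BNAP/GRP1, 0.0420, 0.251, 0.0824 and 1.03 in GRP2/MP3, 0.433, 0.578, 0.0773 and 2.15 in GRP3 and 0.249, 0.0142, 0 and 0.152 in PFMP. Every NSC library was above every library of GRP2/MP3, GRP3 and PFMP, while BNAP/GRP1 2 and BNAP/GRP1 4 lay within or above the NSC range. Against NSC the log2 fold change was -2.45 ± 0.70 (SE) in PFMP (adjusted p = 0.132, and 0.0114 with the block). In GRP2/MP3 it was -2.21 ± 0.70 (SE) (adjusted p = 0.232, and 0.0227 with the block) and in GRP3 -1.85 ± 0.70 (SE) (adjusted p = 0.492, and 0.0742 with the block). BNAP/GRP1 gave -1.06 ± 0.70 (SE) (adjusted p = 0.866), an estimate that was -0.59 without BNAP/GRP1 1, -0.55 without BNAP/GRP1 3 and -1.84 without BNAP/GRP1 4. It became -1.64 (adjusted p = 0.0346) without BNAP/GRP1 4 and with the block. NSC exceeded the mean of the progenitors by 1.89 ± 0.56 (SE) (adjusted p = 0.108, and 0.00938 with the block).

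Col8a1, the other chain of type VIII, had its higher values in batch 4 outside PFMP. It was at 0.173, 0.560, 0 and 1.48 RPKM in NSC, 0.229, 0.952, 0 and 8.51 in BNAP/GRP1, 0.293, 0.340, 0.0416 and 1.24 in GRP2/MP3, 0.183, 0.129, 0.00249 and 1.91 in GRP3 and 0.598, 0.287, 0 and 0.0230 in PFMP. Outside batch 4 the gene stayed under 1 RPKM in all 15 libraries, and in batch 4 it was above 1 RPKM in each population but PFMP. The median over all genes was raised in the same libraries of batch 4. Since Col8a2 is the gene that was called, the RefSeq promoter window is shown, from 250 bases before to 50 bases after the start, at chr4:126286544-126286843 on the plus strand (GRCm38.p6), with matches to the GC box (GGGCGG on either strand), which binds Sp-family factors, in capitals.
Col8a2: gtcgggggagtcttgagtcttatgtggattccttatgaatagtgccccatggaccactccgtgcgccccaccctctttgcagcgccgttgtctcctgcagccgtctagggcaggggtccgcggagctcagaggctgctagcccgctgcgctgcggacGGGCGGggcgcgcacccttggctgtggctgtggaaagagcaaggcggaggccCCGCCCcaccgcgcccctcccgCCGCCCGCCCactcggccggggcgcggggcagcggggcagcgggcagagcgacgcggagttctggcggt
The window held 4 matches, the last 2 of them overlapping by 2 bases, and 71.7% of its bases were G or C. A GC box was in 35.7% of all 32851 windows of this length, and the window matched none of the other motifs searched on both strands, the CCAAT box (CCAAT, in 37.4% of all windows), the TATA box (TATAAA, in 13.6%) and the SOX core (ACAAT, in 31.0%).

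Col26a1 (chr5:136741759-136883209), an EMI-domain collagen first described in testis and ovary, had the highest mean log2 level of the network class and the lowest estimate of all collagen genes in GRP2/MP3 against NSC. It measured 39.1, 38.7, 3.85 and 14.6 RPKM in NSC and 0.773, 1.14, 0.00373 and 41.8 RPKM in BNAP/GRP1. In GRP2/MP3 it was at 2.00, 2.86, 0.00642 and 6.58 RPKM, in GRP3 at 26.7, 14.7, 0.185 and 7.95 RPKM and in PFMP at 6.43, 17.8, 0.0799 and 1.53 RPKM. NSC was above GRP2/MP3, GRP3 and PFMP in each of the 4 batches and above BNAP/GRP1 in 3 of 4, but the ranges of NSC and every progenitor overlapped. The log2 fold change was -2.60 ± 1.18 (SE) in GRP2/MP3 (adjusted p = 0.762, and 0.120 with the block), -2.08 ± 1.18 (SE) in PFMP and -1.18 ± 1.18 (SE) in GRP3. The GRP3 estimate was -1.82 without NSC 3 and -0.24 without GRP3 3. Without BNAP/GRP1 4 and with the block, Col26a1 passed in BNAP/GRP1 (adjusted p = 0.00480), in GRP2/MP3 (0.0166) and in NSC against the progenitor mean (0.00505).

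Col5a2 (chr1:45374321-45503282), a chain of the type V collagen that starts fibrils and limits their width, was at 6.37, 5.87, 2.40 and 6.39 RPKM in NSC and 0.755, 0.0647, 1.60 and 0.509 RPKM in PFMP, and these ranges did not overlap. The other populations held 0.712, 0.657, 1.95 and 7.37 RPKM in BNAP/GRP1, 0.719, 4.68, 1.84 and 3.65 RPKM in GRP2/MP3 and 1.92, 1.97, 1.99 and 3.89 RPKM in GRP3. PFMP differed from NSC by -1.86 ± 0.60 (SE) (adjusted p = 0.245, 0.0669 with the block, and 0.0196 with the block and without BNAP/GRP1 4). Its partner Col5a1 was low, with 0.869, 0.505, 1.03 and 0.788 RPKM in NSC, 0.120, 0.643, 0.665 and 4.12 in BNAP/GRP1, 0.149, 0.407, 0.904 and 0.759 in GRP2/MP3, 1.80, 1.65, 1.06 and 1.10 in GRP3 and 1.07, 1.71, 0.760 and 0.0327 in PFMP. Col5a1 was above 1 RPKM in all 4 GRP3 libraries and in 1 of 4 NSC libraries.

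Col12a1, a FACIT on the surface of type I fibrils, gave 3.44, 3.47, 0.723 and 4.52 RPKM in NSC, 0.528, 1.79, 0.164 and 18.6 in BNAP/GRP1, 0.416, 0.118, 0.537 and 3.44 in GRP2/MP3, 1.30, 0.985, 0.717 and 4.17 in GRP3 and 1.15, 0.0607, 0.119 and 0.0914 in PFMP. PFMP was lower than NSC in all 4 batches (-1.52 ± 0.75 (SE), adjusted p = 0.909). Col27a1, a fibrillar collagen best known from cartilage, had 7.10, 7.33, 1.55 and 3.56 RPKM in NSC, 3.69, 2.28, 0.903 and 15.2 in BNAP/GRP1, 5.07, 6.81, 0.869 and 3.45 in GRP2/MP3, 2.99, 2.30, 0.580 and 2.84 in GRP3 and 2.26, 2.59, 0.489 and 0.0739 in PFMP, where the estimate was -1.35 ± 0.70 (SE) (adjusted p = 0.983). For both genes the PFMP comparison passed with the block and without BNAP/GRP1 4 (adjusted p = 0.0490 and 0.0382). Neither NSC range was clear of that of PFMP. The ependymal markers were also high in each NSC library, and their part in these results was not tested.

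**Figure D3:**
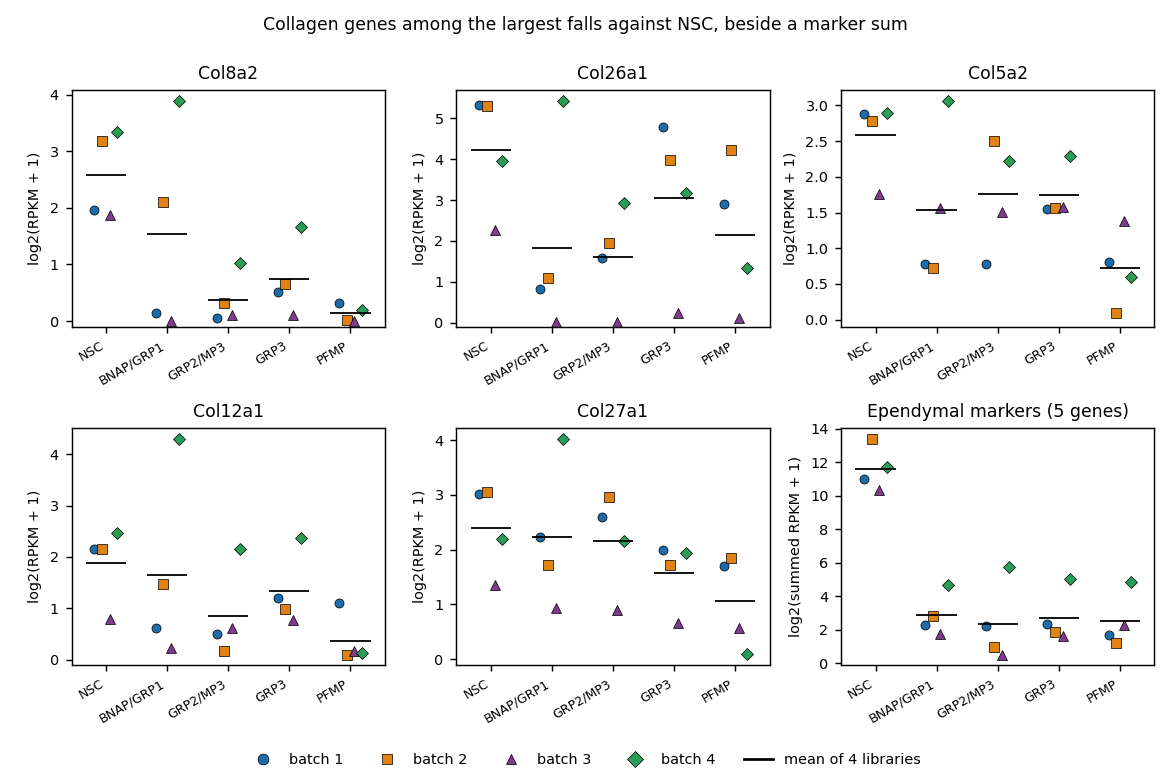
Level of Col8a2, Col26a1, Col5a2, Col12a1 and Col27a1 as log2(RPKM + 1) in each library (symbols, coloured by batch) of the 5 populations (horizontal axis), with the mean of the 4 libraries as a line, and the last panel gives the summed RPKM of 5 ependymal markers as log2(sum + 1). The NSC symbols of Col8a2 lie above all those of GRP2/MP3, GRP3 and PFMP, and BNAP/GRP1 4 is high in all 5 genes.

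Col4a1 and Col4a2, which encode the chains of the type IV collagen found in all basement membranes, were highest in GRP2/MP3. Col4a1 was at 14.5, 32.0, 1.22 and 37.6 RPKM in GRP2/MP3, 11.2, 7.91, 1.78 and 3.39 in NSC, 0.791, 1.55, 1.49 and 4.60 in BNAP/GRP1, 7.60, 5.17, 1.05 and 3.19 in GRP3 and 1.75, 3.18, 1.13 and 0.925 in PFMP. Col4a2 followed at 6.55, 12.9, 1.01 and 28.4 RPKM in GRP2/MP3, 5.22, 3.22, 1.34 and 2.80 in NSC, 0.396, 0.766, 1.05 and 4.73 in BNAP/GRP1, 4.58, 2.71, 1.34 and 1.91 in GRP3 and 0.641, 0.595, 0.965 and 1.58 in PFMP. In both genes GRP2/MP3 4, 2 and 1 were the 3 highest of 20 libraries and NSC 1 the fourth, whereas GRP2/MP3 3 was among the low ones.

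The direct comparisons did not pass after adjustment. GRP2/MP3 exceeded PFMP by 2.47 ± 0.78 (SE) for Col4a1 (unadjusted p = 0.00490, adjusted p = 1) and by 2.22 ± 0.70 (SE) for Col4a2 (unadjusted p = 0.00464, adjusted p = 1). The log2 fold change of BNAP/GRP1 against GRP2/MP3 was -2.36 ± 0.78 (SE) for Col4a1 (unadjusted p = 0.00673) and -1.94 ± 0.70 (SE) for Col4a2 (unadjusted p = 0.0115), both with an adjusted p of 0.966. With batch 3 left out of every population, Col4a1 passed the test of any difference among the 5 populations (adjusted p = 0.0459, and 0.0400 with the block). Pericyte markers were at 532, 461, 125 and 7481 RPKM in the same 4 GRP2/MP3 libraries, with Rgs5 at 120.4, 155, 0.251 and 6493 RPKM, and all 9 pericyte markers were above 0 in at least 1 library of every population. Endothelial markers were at 182, 199, 7.81 and 137 RPKM in these GRP2/MP3 libraries. They were highest in NSC 1, at 340 RPKM, where pericyte markers were at 5.94 RPKM. The part of either list in the type IV levels was not tested.

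The 2 genes lie head to head on chromosome 8 and are annotated with opposite strands, Col4a1 at chr8:11198423-11312826 (minus) and Col4a2 at chr8:11312805-11449287 (plus) in GENCODE vM21 on GRCm38, so that they overlap by 22 bases at their starts. Whether the counting kept the strand is not stated. The RPKM ratio of Col4a1 to Col4a2 was 2.22 and 2.48 in GRP2/MP3 1 and 2 and was 1.20 and 1.32 in GRP2/MP3 3 and 4. Both promoter windows are shown because both genes had the same 4 highest libraries, with GC boxes (GGGCGG) and CCAAT boxes (CCAAT) on either strand in capitals, Col4a1 at chr8:11312777-11313076 and Col4a2 at chr8:11312555-11312854.
Col4a1: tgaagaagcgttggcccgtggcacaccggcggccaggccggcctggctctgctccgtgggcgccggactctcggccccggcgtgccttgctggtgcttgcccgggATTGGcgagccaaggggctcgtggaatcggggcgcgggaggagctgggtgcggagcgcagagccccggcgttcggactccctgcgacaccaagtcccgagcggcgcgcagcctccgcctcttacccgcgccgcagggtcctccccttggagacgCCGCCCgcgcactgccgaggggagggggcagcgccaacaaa
Col4a2: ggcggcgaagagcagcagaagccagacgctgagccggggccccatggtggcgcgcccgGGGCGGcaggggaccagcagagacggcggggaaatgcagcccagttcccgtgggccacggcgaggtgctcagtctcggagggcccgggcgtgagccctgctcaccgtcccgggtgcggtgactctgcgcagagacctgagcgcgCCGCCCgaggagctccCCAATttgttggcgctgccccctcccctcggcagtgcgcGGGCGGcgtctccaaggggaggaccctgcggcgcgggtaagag
The windows share 78 bases, read on opposite strands, and the GC box just after each start is one and the same site, at chr8:11312812-11312817. The Col4a1 window held 1 GC box and 1 CCAAT box and that of Col4a2 held 3 and 1, while neither held the TATA box or the SOX core. Of the 44 collagen genes, 35 had a window in the RefSeq table, and of their 38 windows 60.5% held a GC box (35.7% of all windows), 34.2% a CCAAT box (37.4%), 13.2% the TATA box (13.6%) and 5.26% the SOX core (31.0%).

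The other type IV chains were lower and less regular. Col4a5, a chain of kidney, lung and inner ear basement membranes, was at 38.3, 5.82, 0.806 and 2.95 RPKM in NSC, 2.58, 0.422, 0.248 and 3.55 in BNAP/GRP1, 0.145, 5.89, 0.703 and 3.76 in GRP2/MP3, 7.46, 17.3, 0.665 and 2.53 in GRP3 and 5.91, 0.522, 0.518 and 1.68 in PFMP. NSC 1 was well above any other library. Col4a4, its partner, measured 4.29, 2.94, 0.367 and 1.13 RPKM in NSC, 0.443, 0.418, 0.138 and 5.88 in BNAP/GRP1, 0.320, 0.658, 0.0757 and 0.781 in GRP2/MP3, 0.470, 0.360, 0.127 and 1.45 in GRP3 and 0.717, 0.283, 0.00444 and 0.298 in PFMP. NSC was above GRP2/MP3 and PFMP in all 4 batches, and NSC against the progenitor mean passed with the block and without BNAP/GRP1 4 (adjusted p = 0.0295).

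Col4a3, the third chain of that assembly, was above 1 RPKM in batch 4 only. The median over all genes was also raised in batch 4, except in PFMP 4. It stayed under 1 RPKM in all 15 libraries of batches 1 to 3 and was at 7.20 RPKM in NSC 4, 5.69 RPKM in BNAP/GRP1 4, 5.33 RPKM in GRP2/MP3 4, 1.92 RPKM in GRP3 4 and 2.29 RPKM in PFMP 4. Outside batch 4 its values were 0.332, 0.160 and 0.125 RPKM in NSC, 0.220, 0.830 and 0.0247 in BNAP/GRP1, 0.209, 0.345 and 0.0983 in GRP2/MP3, 0.222, 0.202 and 0.0191 in GRP3, and 0.738, 0.115 and 0.0268 in PFMP. Col4a6, which pairs with Col4a5 in smooth muscle basement membranes, was not tested and had 0.505, 0.610, 0.135 and 0.705 RPKM in NSC, 0.133, 0.868, 0 and 3.67 in BNAP/GRP1, 0.227, 0.0935, 0.160 and 0.309 in GRP2/MP3, 0.927, 0.638, 0.0697 and 0.693 in GRP3 and 0.202, 0.337, 0.121 and 0.0605 in PFMP. Only BNAP/GRP1 4 held Col4a6 above 1 RPKM.

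Col18a1, a multiplexin of basement membranes and the source of endostatin, was at 0.870, 1.83, 0.895 and 7.67 RPKM in GRP2/MP3, 2.09, 0.765, 1.01 and 3.90 in NSC, 0.141, 0.142, 1.04 and 9.51 in BNAP/GRP1, 2.83, 2.25, 0.558 and 2.19 in GRP3 and 0.713, 3.07, 0.786 and 0.444 in PFMP. Apart from BNAP/GRP1 4, GRP2/MP3 4 was the highest library, as it was for Col4a1 and Col4a2. No comparison of Col18a1 passed an unadjusted p of 0.05 in the model without batch.

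Col9a3 (chr2:180597790-180622189) reached the highest level of any collagen gene, in the CD140a+ populations. It encodes a chain of type IX, a FACIT that sits on type II and XI fibrils of cartilage. RPKM was 124, 142, 0.407 and 15.8 in GRP3 and 171, 56.7, 0.417 and 14.2 in PFMP, against 23.8, 7.23, 1.18 and 2.63 in NSC, 11.0, 7.68, 0.0693 and 6.80 in BNAP/GRP1 and 1.07, 12.2, 0.191 and 8.31 in GRP2/MP3. In batches 1 and 2 both CD140a+ populations were above all libraries of the CD140a- populations, in batch 4 they were the highest of their batch by less, and in batch 3 all 5 libraries ran from 0.0693 to 1.18 RPKM, with NSC 3 highest. Against the shared NSC libraries the log2 fold change was 2.01 ± 1.44 (SE) in GRP3 and 1.76 ± 1.44 (SE) in PFMP, with adjusted p = 1 and 1 (0.313 and 0.419 with the block). With single libraries left out, the GRP3 estimate was 1.24 without GRP3 1, 1.18 without GRP3 2 and 3.40 without GRP3 3, and that of PFMP was 0.76 without PFMP 1 and 3.07 without PFMP 3. With batch 3 left out and the block in the model, the estimates were 2.89 (adjusted p = 0.114) and 2.56 (adjusted p = 0.181).

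The partner chains of type IX were much lower. Col9a1 measured 4.89, 2.33, 0.760 and 1.85 RPKM in NSC, 1.41, 2.00, 0 and 8.13 in BNAP/GRP1, 0.738, 0.723, 0 and 2.52 in GRP2/MP3, 0.979, 1.31, 0 and 2.41 in GRP3 and 2.08, 3.24, 0 and 1.57 in PFMP. It was listed at 0 in all 4 progenitor libraries of batch 3. Col9a2 was at 0.0292, 0.554, 0.00626 and 6.76 RPKM in NSC, 0.464, 0.0811, 0 and 3.84 in BNAP/GRP1, 0, 0.138, 0 and 0.762 in GRP2/MP3, 5.55, 2.66, 0 and 2.70 in GRP3 and 0.781, 6.02, 0 and 0.545 in PFMP. Thus Col9a2, like Col9a3, was high in GRP3 1 and PFMP 2, but NSC 4 was its highest library and BNAP/GRP1 4 lay above GRP3 2 and GRP3 4.

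Col11a1 (chr3:114030540-114220718), the type XI chain that nucleates cartilage fibrils, was high in GRP3 and PFMP of batches 1 and 2, as was Col9a3. It was at 15.0, 19.9, 0.0476 and 10.4 RPKM in GRP3 and 18.5, 14.5, 0.104 and 3.89 RPKM in PFMP, next to 1.40, 1.01, 0.0296 and 3.58 in NSC, 1.66, 1.67, 0 and 14.2 in BNAP/GRP1 and 1.06, 2.03, 0 and 4.50 in GRP2/MP3. GRP3 and PFMP were above NSC in all 4 batches, by 1.86 ± 1.03 (SE) and 1.54 ± 1.03 (SE) on the log2 scale (adjusted p = 1 and 1, and 0.195 and 0.339 with the block). The GRP3 estimate was 2.84 without GRP3 3, and the PFMP estimate was 1.00 without PFMP 1 and 2.38 without PFMP 3. BNAP/GRP1 4 lay among these high libraries, and in batch 3 the gene was at 0 to 0.104 RPKM in all 5 populations. Markers of oligodendrocyte progenitors, among them the sorted antigen gene Pdgfra, were high in the 6 GRP3 and PFMP libraries of batches 1, 2 and 4 and were at 14.8 and 15.3 RPKM in GRP3 3 and PFMP 3, and their part in the Col9a3 and Col11a1 levels was not tested.

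Col11a2, another chain of type XI, was at 0.0618, 0.0533, 0.411 and 1.16 RPKM in NSC, 0.525, 0.558, 0.768 and 7.20 in BNAP/GRP1, 0.306, 0.281, 0.522 and 1.61 in GRP2/MP3, 2.81, 1.30, 0.376 and 2.06 in GRP3 and 0.929, 3.22, 0.406 and 0.799 in PFMP. BNAP/GRP1 was above NSC in all 4 batches (0.83 ± 0.59 (SE), adjusted p = 0.866), and so was GRP2/MP3 (0.24 ± 0.59 (SE), adjusted p = 1). The BNAP/GRP1 estimate was 0.25 without BNAP/GRP1 4. That of GRP2/MP3 was 0.12 without NSC 1, 0.12 without NSC 2, 0.46 without NSC 4 and 0.01 without GRP2/MP3 4. Col2a1, the main fibril of cartilage and the third chain of type XI, was not tested. It had 0.299, 0.377, 0 and 0.734 RPKM in NSC, 0.144, 0.814, 0 and 5.15 in BNAP/GRP1, 0.00896, 0.0669, 0 and 0.443 in GRP2/MP3, 0.176, 0.0972, 0.0343 and 0.807 in GRP3 and 0.0532, 0, 0 and 0.225 in PFMP. BNAP/GRP1 4 was again the only library above 1 RPKM.

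Col16a1, a FACIT of skin and cartilage, and Col13a1, a transmembrane collagen of the neuromuscular junction, also had their higher values in the CD140a+ libraries. Col16a1 was at 1.44, 1.65, 0.778 and 4.76 RPKM in NSC, 0.837, 2.21, 0.189 and 16.8 in BNAP/GRP1, 0.560, 0.803, 1.36 and 4.08 in GRP2/MP3, 5.16, 4.94, 1.68 and 7.50 in GRP3 and 2.13, 6.04, 1.03 and 4.60 in PFMP. Apart from BNAP/GRP1 4, its 4 highest libraries were all GRP3 or PFMP, and so were those of Col13a1. Col13a1 measured 3.12, 2.00, 0.715 and 1.91 RPKM in NSC, 0.679, 0.494, 0 and 15.5 in BNAP/GRP1, 0.0739, 0.221, 0 and 1.73 in GRP2/MP3, 6.43, 6.01, 0 and 3.44 in GRP3 and 2.63, 6.05, 0 and 0.0611 in PFMP. It was listed at 0 in the 4 progenitor libraries of batch 3.

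**Figure D4:**
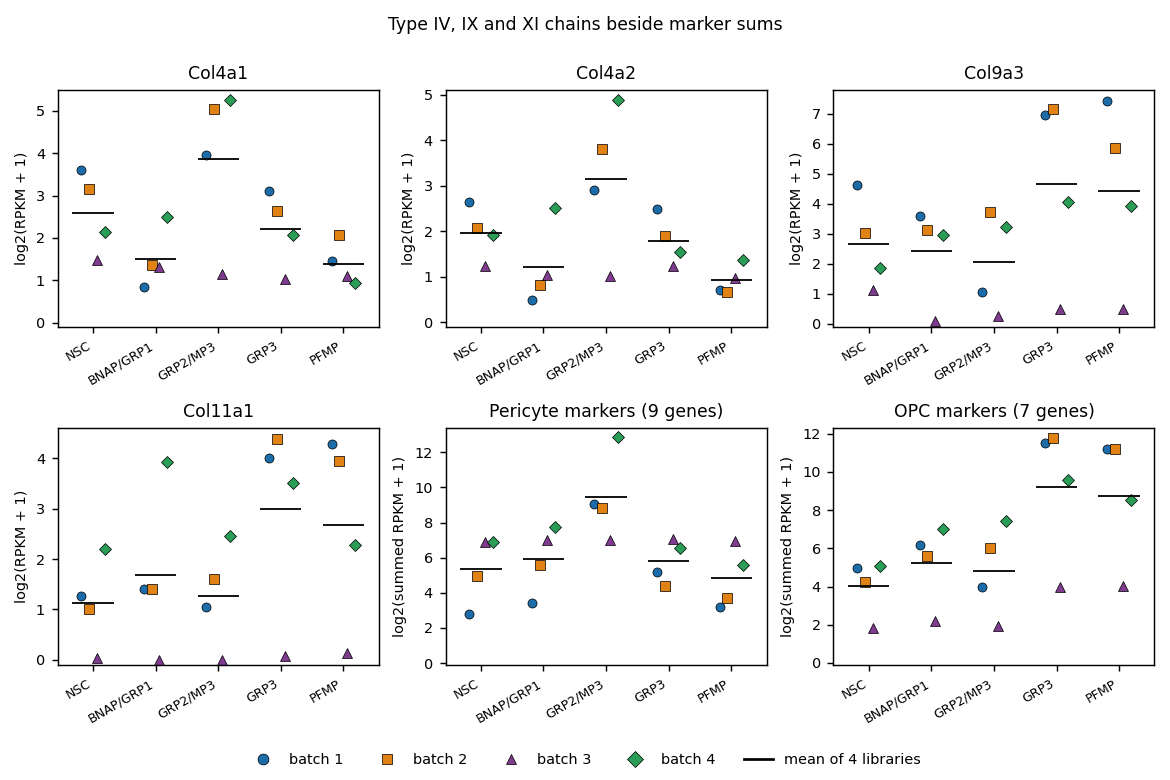
Level of Col4a1, Col4a2, Col9a3 and Col11a1 as log2(RPKM + 1) in each library (symbols, coloured by batch) of the 5 populations, with the mean of the 4 libraries as a line, beside the summed RPKM of 9 pericyte markers and of 7 markers of oligodendrocyte progenitors (OPC) as log2(sum + 1). GRP2/MP3 of batches 1, 2 and 4 stands out in the Col4a1, Col4a2 and pericyte panels, GRP3 and PFMP of the same batches stand out in the OPC panel and, in batches 1 and 2, in the Col9a3 and Col11a1 panels, and batch 3 (triangles) does so in none of these genes.

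The interstitial collagens were similar in every population of batch 3, and in batches 1 and 2 Col1a1, Col1a2 and Col3a1 were each highest in GRP3. Col3a1 (chr1:45311538-45349706), the homotrimer of type III in soft connective tissue, was at 0.114, 0.442, 10.5 and 3.45 RPKM in NSC, 0.376, 3.33, 13.8 and 15.1 in BNAP/GRP1, 3.33, 8.35, 14.8 and 30.4 in GRP2/MP3, 13.4, 12.2, 14.1 and 13.0 in GRP3 and 2.95, 0.817, 12.5 and 0.658 in PFMP. In BNAP/GRP1, GRP2/MP3 and GRP3 it was above NSC in all 4 batches. The log2 fold change was 2.23 ± 0.89 (SE) in GRP3 (adjusted p = 0.578, and 0.0918 with the block), 1.99 ± 0.89 (SE) in GRP2/MP3 (adjusted p = 0.753, and 0.139 with the block) and 1.03 ± 0.89 (SE) in BNAP/GRP1 (adjusted p = 0.866). With single libraries left out, the BNAP/GRP1 estimate was 0.55 without NSC 1, 0.68 without NSC 2, 1.67 without NSC 3, 1.75 without BNAP/GRP1 1, 0.61 without BNAP/GRP1 3 and 0.57 without BNAP/GRP1 4.

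Col1a1 and Col1a2 encode the chains of type I collagen, the main fibril of bone, skin and meninges. Col1a1 was at 5.09, 4.05, 11.4 and 13.8 RPKM in GRP3, 0.0154, 0.212, 10.3 and 1.55 in NSC, 0.0241, 0.0639, 12.3 and 5.44 in BNAP/GRP1, 0.643, 0.0826, 11.9 and 1.47 in GRP2/MP3 and 1.29, 0.703, 10.4 and 0.874 in PFMP. Outside batch 3, its 4 highest libraries were the 3 of GRP3 and BNAP/GRP1 4. GRP3 exceeded NSC in all 4 batches, by 1.83 ± 0.98 (SE) (adjusted p = 1, 0.0801 with the block, and 0.0328 with the block and without BNAP/GRP1 4).

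Col1a2 was the only collagen gene above 1 RPKM in all 20 libraries. Its RPKM was 27.4, 21.3, 13.4 and 15.6 in GRP3, 11.0, 13.6, 12.3 and 5.80 in NSC, 1.07, 2.71, 12.8 and 15.1 in BNAP/GRP1, 9.29, 7.86, 11.8 and 20.4 in GRP2/MP3 and 5.11, 3.29, 11.4 and 1.69 in PFMP. GRP3 was above NSC in all 4 batches, whereas PFMP was below NSC in all 4. The direct difference of GRP3 from PFMP was 1.86 ± 0.65 (SE) (unadjusted p = 0.00905, adjusted p = 1), and it had the same sign in all 4 batches. BNAP/GRP1 against GRP3 gave -1.62 ± 0.65 (SE) (unadjusted p = 0.0207, adjusted p = 0.950), and -1.07 without BNAP/GRP1 1.

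Within batch 3 the 5 populations lay close together in these genes. Col1a1 was at 10.3 to 12.3 RPKM, Col1a2 at 11.4 to 13.4 RPKM and Col3a1 at 10.5 to 14.8 RPKM across the 5 libraries, which is a highest value 1.19, 1.18 and 1.42 times the lowest. In batches 1, 2 and 4 the same ratio was 332, 63.3 and 15.8 for Col1a1 and 117, 27.6 and 46.3 for Col3a1. Among the 10 listed genes of collagen breakdown, Ctsk and Mmp13 were singled out after their values were seen. The osteoclast and macrophage protease Ctsk was at 431 to 488 RPKM in batch 3 and at most 8.64 RPKM elsewhere, and the collagenase Mmp13 was at 87.4 to 101 RPKM against at most 5.76 RPKM. Scgb1a1, an airway epithelium gene, was at 839 to 965 RPKM there and at most 13.6 RPKM elsewhere. The part of such RNA in the batch 3 collagen levels was not tested. With batch 3 left out and the block in the model, GRP3 against NSC was 2.39 (adjusted p = 0.0550) for Col1a1 and 2.84 (adjusted p = 0.0778) for Col3a1.

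Col15a1, a multiplexin of vascular and muscle basement membranes, was at 6.12, 8.78, 1.13 and 1.96 RPKM in GRP3, 0.333, 0, 0.221 and 1.30 in NSC, 1.09, 0.0420, 1.16 and 6.63 in BNAP/GRP1, 0.436, 2.08, 0.970 and 0.724 in GRP2/MP3 and 2.75, 0.162, 1.02 and 0.0193 in PFMP. GRP3 was above NSC in all 4 batches (1.72 ± 0.66 (SE), unadjusted p = 0.0167, adjusted p = 0.509) and above PFMP in all 4 (1.40 ± 0.66 (SE), unadjusted p = 0.0457). The 10 markers of fibroblasts and meninges summed to 71.3, 69.8, 14.8 and 68.6 RPKM in GRP3 and, apart from BNAP/GRP1 4 at 94.8 RPKM, to at most 25.3 RPKM in the other populations. Dcn, the fibroblast proteoglycan decorin, was at 24.6, 30.9, 9.50 and 39.0 RPKM in GRP3 and 10.8, 0.714, 4.66 and 7.39 RPKM in PFMP, and 0, 0.0960, 5.99 and 0.977 RPKM in NSC. The part of such cells in the GRP3 values was not tested.

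Type VI collagen, the beaded filament that links cells to fibrils, was low outside BNAP/GRP1 4. Col6a1 was at 0.285, 0.656, 1.86 and 0.816 RPKM in NSC, 0.245, 0.0264, 1.47 and 5.15 in BNAP/GRP1, 0.0428, 0.282, 1.87 and 0.300 in GRP2/MP3, 4.20, 1.94, 2.19 and 1.81 in GRP3 and 0.432, 0, 2.01 and 0.834 in PFMP. GRP3 was above NSC in all 4 batches and held the highest value of batches 1, 2 and 3. Col6a2 was at 0.196, 0.291, 1.07 and 2.22 RPKM in NSC, 0.0783, 2.95, 1.14 and 13.0 in BNAP/GRP1, 0.296, 0.263, 1.64 and 1.96 in GRP2/MP3, 3.01, 1.53, 0.810 and 2.96 in GRP3 and 0.689, 0, 1.15 and 0.553 in PFMP. For Col6a3 the values were 0.368, 0.476, 0.880 and 2.30 RPKM in NSC, 0.141, 0.317, 0.606 and 15.7 in BNAP/GRP1, 0.133, 0.564, 0.503 and 3.96 in GRP2/MP3, 1.46, 1.73, 0.558 and 2.52 in GRP3 and 0.590, 1.37, 0.528 and 0.127 in PFMP. In all 3 chains BNAP/GRP1 4 was the highest library, with GRP3 1 next in Col6a1 and Col6a2 and GRP2/MP3 4 next in Col6a3.

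Col14a1, a FACIT of dense connective tissue, was highest in BNAP/GRP1 2. In BNAP/GRP1 its values were 0.464, 22.8, 0.180 and 5.36 RPKM, next to 0.130, 0.169, 0.0978 and 1.71 in NSC, 0.450, 0.614, 0.154 and 0.638 in GRP2/MP3, 1.22, 1.11, 0 and 1.91 in GRP3 and 1.13, 0.978, 0.0977 and 0.0104 in PFMP. Although BNAP/GRP1 exceeded NSC in all 4 batches (1.51 ± 0.73 (SE), adjusted p = 0.849), the differences on the log2 scale were 0.37 and 0.10 in batches 1 and 3 and 4.35 in batch 2. Without BNAP/GRP1 2 the estimate in BNAP/GRP1 was 0.66.

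**Figure D5:**
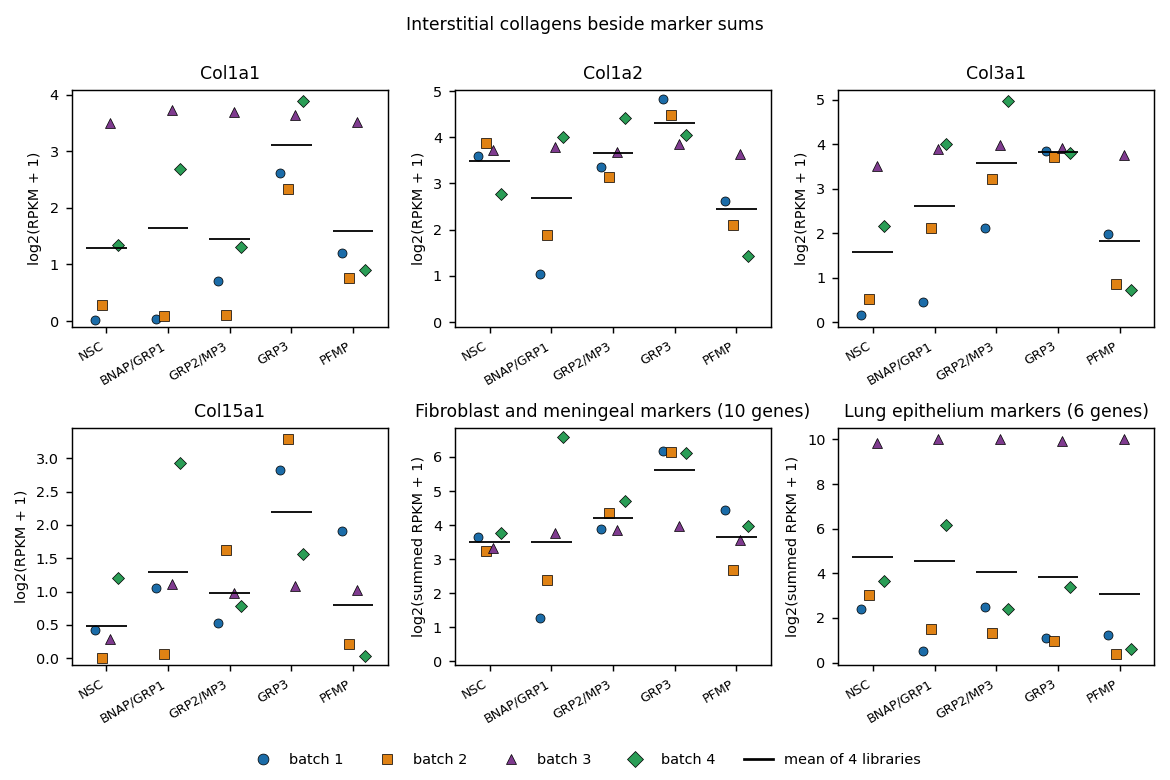
Level of Col1a1, Col1a2, Col3a1 and Col15a1 as log2(RPKM + 1) in each library (symbols, coloured by batch) of the 5 populations, with the mean of the 4 libraries as a line, beside the summed RPKM of 10 fibroblast and meningeal markers and of 6 lung epithelium markers as log2(sum + 1). The batch 3 triangles form a level row in Col1a1, Col1a2 and Col3a1 and are the highest symbols of the lung epithelium panel (916 to 1041 RPKM), followed by BNAP/GRP1 4 (70.8 RPKM). GRP3 of batches 1 and 2 stands out from the other populations of those batches in Col1a1 and Col15a1.

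With all libraries in the model, more collagen genes differed among batches than among populations, though by a smaller share than over all genes. Among the tested collagen genes 17 of 37 (45.9%) differed among the 4 batches at an adjusted p under 0.05, against a background of 59.8% of all tested genes, in limma's F-test with population and batch in the model. The lowest adjusted p were those of Col4a3 (0.000118), Col1a1 (0.000257) and Col9a3 (0.000420), all described above. Among the called genes, Col4a3, Col8a1 and Col28a1 reached 1 RPKM in batch 4 only, where the median over all genes was also raised in every population but PFMP. The filter thus kept them through the batch where they were high, which favoured their calls. With batch 4 left out of every population, 25 collagen genes were tested and 12 were called (48%, background 44.7%), a share slightly above the background. With batch 3 left out of every population, only Col4a3 of the 17 was still called (2.70%, background 20.9%). The 5 genes on this list not yet described reached at most 2.66 RPKM outside batch 4, in Col23a1.

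Col25a1, a transmembrane collagen of neurons found in amyloid plaques, was at 0.590, 0.619, 0.122 and 3.24 RPKM in NSC, 1.09, 1.80, 0 and 21.6 in BNAP/GRP1, 1.13, 0.688, 0.00377 and 2.01 in GRP2/MP3, 1.32, 1.35, 0.00339 and 5.44 in GRP3 and 1.60, 1.23, 0 and 1.10 in PFMP. Col23a1, another transmembrane collagen, was at 0.281, 0.260, 0.419 and 0.961 RPKM in NSC, 0.257, 2.66, 0.365 and 8.69 in BNAP/GRP1, 0.205, 0.0540, 0.557 and 1.40 in GRP2/MP3, 0.473, 0.294, 0.175 and 2.50 in GRP3 and 0.143, 0.0102, 0.482 and 1.35 in PFMP. In both genes BNAP/GRP1 4 was highest, and Col25a1 reached at most 0.122 RPKM in batch 3.

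Col19a1, a FACIT-like gene of interneurons and of the embryonic oesophageal muscle, gave 0.0292, 0.164, 0 and 1.30 RPKM in NSC, 0.0643, 0.253, 0 and 6.11 in BNAP/GRP1, 0.283, 0.0590, 0.0196 and 1.12 in GRP2/MP3, 1.04, 1.01, 0.0957 and 2.92 in GRP3 and 0.488, 0.0111, 0.0842 and 0.578 in PFMP. Col28a1, a beaded-filament relative of type VI found around peripheral glia, gave 0.179, 0.0464, 0.177 and 1.57 RPKM in NSC, 0.113, 0.0995, 0 and 5.43 in BNAP/GRP1, 0.468, 0.314, 0 and 1.17 in GRP2/MP3, 0.376, 0.438, 0.105 and 1.58 in GRP3 and 0.623, 0.383, 0 and 1.15 in PFMP. For Col6a4, a further type VI chain, the values were 0.492, 0.848, 1.05 and 4.00 RPKM in NSC, 0.184, 0.0640, 0.120 and 19.8 in BNAP/GRP1, 0.0693, 0.0621, 0.224 and 1.32 in GRP2/MP3, 0.0679, 0.0250, 0.509 and 2.84 in GRP3 and 1.36, 0.986, 0.644 and 0.162 in PFMP. Each of these 3 genes was above 1 RPKM in batch 4, except in PFMP 4 for Col19a1 (0.578 RPKM) and for Col6a4 (0.162 RPKM). PFMP 4 was also the batch 4 library without a raised median over all genes.

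The 9 collagen genes not yet named with values were Col5a3, Col24a1, Col6a5, Col6a6, Col7a1, Col10a1, Col20a1, Col22a1 and Col17a1. Each was at or above 1 RPKM in 1 to 7 libraries, among them always BNAP/GRP1 4, where they lay between 3.68 and 15.8 RPKM. Elsewhere their highest value was 10.8 RPKM, for Col20a1 in NSC 4. Of the 4 that were tested, none passed a test between populations.

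Genes that make, bind and break down collagen were counted from lists, each progenitor against NSC. Of 32 genes of collagen folding, modification and processing, 29 were tested. Without the block 0 passed in GRP2/MP3, GRP3 and PFMP (background over all tested genes 1.12%, 1.05% and 1.14%). In BNAP/GRP1 1 passed, at a lower level than in NSC (background 0.760%). That gene was Serpinh1, the collagen chaperone HSP47 of the endoplasmic reticulum, at 67.9, 65.4, 19.7 and 37.4 RPKM in NSC and 6.49, 1.03, 6.91 and 4.96 RPKM in BNAP/GRP1 (-3.08 ± 0.66 (SE), adjusted p = 0.0258, and 0.00916 with the block). In the other progenitors Serpinh1 was at 7.54, 38.5, 5.98 and 33.9 RPKM in GRP2/MP3, 15.6, 12.5, 7.53 and 5.24 in GRP3 and 4.53, 5.10, 7.80 and 13.5 in PFMP, and with the block it also passed in PFMP (-2.43 ± 0.63 (SE), adjusted p = 0.0427). The call in BNAP/GRP1 was lost, with an adjusted p of 0.0510 to 0.147, when NSC 1, NSC 2, NSC 4 or BNAP/GRP1 1, 2 or 3 was left out of the model without the block. The NSC libraries lay above every BNAP/GRP1, GRP3 and PFMP library. The median of the list was 0.05, -0.08, 0.05 and -0.27 in the 4 progenitors, beside 0.38, -0.08, 0.05 and -0.20 for all genes.

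Of 10 collagen receptors, 6 were tested and none passed without the block. With it, Ddr1, a receptor tyrosine kinase for collagen, fell in BNAP/GRP1 (-2.83 ± 0.68 (SE), adjusted p = 0.0316) and GRP2/MP3 (-3.33 ± 0.68 (SE), adjusted p = 0.00713). Its RPKM was 30.8, 47.3, 12.4 and 35.2 in NSC, 4.22, 1.57, 1.93 and 6.35 in BNAP/GRP1, 0.691, 2.57, 1.35 and 4.12 in GRP2/MP3, 45.4, 29.9, 1.36 and 5.15 in GRP3 and 15.3, 22.9, 1.31 and 3.94 in PFMP, so that the CD140a+ libraries of batches 1 and 2 lay within the NSC range. The Ddr1 calls with the block were 1 of 6 in BNAP/GRP1 (background 2.09%) and 1 of 6 in GRP2/MP3 (background 3.08%). The receptor medians were 0.20, 0.98, -0.24 and -0.30, beside 0.38, -0.08, 0.05 and -0.20 for all genes.

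Of 15 basement membrane partners (laminin chains, nidogens, perlecan and agrin) 12 were tested and none passed without the block. With it, Lamb2, the laminin beta2 chain, fell in GRP3 (-2.63 ± 0.52 (SE), adjusted p = 0.00672) and PFMP (-3.02 ± 0.52 (SE), adjusted p = 0.00179), from 15.0, 17.7, 1.90 and 22.0 RPKM in NSC to 1.04, 0.807, 0.218 and 2.06 in GRP3 and 0.299, 0.0732, 0.515 and 1.21 in PFMP. NSC 3 was the low NSC library and lay below GRP3 4. The Lamb2 calls were 1 of 12 in GRP3 (background 2.60%) and 1 of 12 in PFMP (background 2.79%). The medians of the list were -0.09, 0.44, -0.33 and -0.87, beside 0.38, -0.08, 0.05 and -0.20 for all genes. Nid1, which joins laminin to type IV collagen, was at 4.15, 25.2, 1.11 and 34.7 RPKM in GRP2/MP3 and did not pass. All 10 proteases and inhibitors of collagen breakdown were tested, none passed with or without the block, and their medians were -0.04, 0.05, -0.05 and -0.13. With the block, P3h4 and P4ha3 of the folding list also fell, P3h4 in GRP2/MP3 (adjusted p = 0.0463) and P4ha3 in GRP3 (adjusted p = 0.0467). P3h4 was at 2.16 to 26.1 RPKM in NSC and 0.901 to 1.82 RPKM in GRP2/MP3. P4ha3 ranged widely in NSC, from 0.186 to 41.0 RPKM, and overlapped with GRP3 at 0.142 to 2.18 RPKM. With Serpinh1, these calls made 1 of 29 folding genes in each of BNAP/GRP1, GRP2/MP3, GRP3 and PFMP (background 2.09%, 3.08%, 2.60% and 2.79%).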

How the data were processed

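RNA sequencing was performed by the authors on 20 libraries, 1 for each of 5 sorted populations in each of 4 batches, from amplified polyA RNA. Per the submitters' processing notes and the study's methods, the reads went through FastQC 0.11.9 and cutadapt 3.4, alignment to GRCm38 by STAR 2.6.1 and quantification by Salmon 1.9.0. The authors' deposited values are RPKM for 45705 genes. The gene lengths and read totals behind the RPKM, and the strand setting, are not given in the sources used here, so an RPKM fixes neither depth nor counting error. A further 26 unnamed columns were empty and were not used.

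RPKM were tested as log2(RPKM + 1), which understates the change of low genes, with limma 3.58.1 in R 4.3.3 (moderated test with a mean-variance trend, spread shared over all 20 libraries). A gene was kept if it reached 1 RPKM in 4 or more libraries, giving 27614 genes, and p-values were adjusted over all of them by the Benjamini-Hochberg method with a threshold of 0.05. The main model had no batch term. The study's methods give no model formula. The batch number links the 5 libraries of a batch in the labels. Deviations from the population means correlated within batches (median r 0.337, 0.262, 0.769 and 0.581 in batches 1 to 4), so results with batch as a replicate block are printed where they change a call. The code was tested on simulated data. The labels do not tie a batch to animals, so p-values measure only the spread between these libraries, which may be partly technical.

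Genes were named if they were called in any comparison with or without the block, were among the top 2 of a class by mean log2 level, were among the 3 largest rises or falls of a progenitor seen in all 4 batches, or were partner chains of such genes. The collagen genes, classes, pathway lists and marker lists were chosen with earlier results of these data known. Gene positions are from GENCODE vM21, and promoter windows from RefSeq on GRCm38.p6, where 35 of the 44 genes had an entry. Alternatives were the block, another pseudocount, other filters, median-of-ratios scaling, quantile normalization, another variance prior, fewer samples in the model, and each library or batch left out.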

Additional observations from a re-analysis of the deposited data

Results flagged for a closer look

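In 175 sets of 4 libraries (each of the 35 genes chosen by the naming rule, 2 of them not tested for differences, in each population), 15 held a library far from the other 3 by Dixon's criterion, which is 8.57%. The naming rule took in genes called among batches, and each set holds 1 library of each batch. No chance rate can therefore be set beside this share. BNAP/GRP1 4 was that library for 6 genes, at 7.20 RPKM in Col11a2, 6.11 RPKM in Col19a1, 5.43 RPKM in Col28a1, 5.88 RPKM in Col4a4, 15.7 RPKM in Col6a3 and 19.8 RPKM in Col6a4. Other libraries of batch 4 were high for NSC in Col14a1 (1.71 RPKM), Col28a1 (1.57 RPKM) and Col4a3 (7.20 RPKM), for GRP2/MP3 in Col4a3 (5.33 RPKM), and for GRP3 in Col5a2 (3.89 RPKM) and Col8a1 (1.91 RPKM). PFMP 1 was high in Col12a1 at 1.15 RPKM. In batch 3, PFMP 3 was high in Col1a1 at 10.4 RPKM, and NSC 3 was low in Col5a2 at 2.40 RPKM.

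For a pair of genes the direction against NSC was opposite between progenitors in every batch. Col1a2 was above NSC in all 4 GRP3 libraries and below it in all 4 PFMP libraries, and GRP3 exceeded PFMP by 1.86 on the log2 scale, with an adjusted p of 1. Col5a1 was above NSC in all 4 GRP3 libraries and below it in all 4 GRP2/MP3 libraries, and the difference of GRP2/MP3 from GRP3 was -0.64 on the log2 scale, with an adjusted p of 1. Neither direct difference passed the test.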

How the results depend on the processing

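For 44 fold changes of genes the text names, all 1469 recomputed values kept their direction. Some of these genes were named for large changes of the same direction in all 4 batches. That choice favoured a kept direction in advance. In 50 of the 1469 values the adjusted p passed the threshold where it had not in the main model, 17 of them without BNAP/GRP1 4 and with the replicate block, and in 11, all of Serpinh1 in BNAP/GRP1, it no longer passed. For 12 of the 44, leaving out 1 library moved the estimate by more than 1.5 times. Counts of called collagen genes, 0 in every main comparison of populations, became 1 with the replicate block in GRP2/MP3, in PFMP, in NSC against the progenitor mean and for any difference among the 5 populations, each time Col8a2. Quantile normalization gave 1 of 37 (2.70%), again Col8a2, in these and in GRP3, where 1.31% to 2.88% of all genes were called. Median-of-ratios scaling gave 1 of 37 in NSC against the progenitor mean (background 2.48%), and leaving out batch 4 gave 1 of 25 there (4.00%, background 2.35%). With single libraries left out, the counts were 0 to 1 in GRP2/MP3, in PFMP and in NSC against the progenitor mean, the 1 of 35 (2.86%) being Col8a2 without BNAP/GRP1 4 (background 2.15%, 2.31% and 3.85%). With BNAP/GRP1 4 left out and the replicate block added, an alternative made once the values were known, the counts were 2 in BNAP/GRP1, GRP2/MP3 and GRP3, 4 in PFMP and in NSC against the progenitor mean, and 2 for any difference among populations (5.71%, background 3.75%). Leaving out batch 3 gave 1 for any difference among populations, with or without the block, which was Col4a1 (2.70%, background 3.61% and 2.27%). The cause was not tested. The 17 genes called among batches (45.9%, background 59.8%) became 11 with quantile normalization (29.7%, background 42.9%), 4 of 7 tested with the filter at a mean RPKM of 5 (57.1%, background 57.5%), 1 without batch 3 (2.70%, background 20.9%), and 11 without GRP3 4 (31.4%, background 44.9%) to 25 without PFMP 4 (67.6%, background 69.4%) with single libraries left out. Without batch 4 the number was 12 of 25 tested (48%, background 44.7%). Relative depth was only estimated from the low values, and the total reads of a library are unknown, so counting error at low RPKM cannot be given.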
